A study of Mus musculus with 53 samples.

Results

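The voltage-gated calcium channel pore subunits were examined in SCA3 mice and wild-type controls, in 4 regions of the brain. They were taken as the genes of the count table whose symbol is Cacna1 followed by a letter, which gave 8 genes of 12372: Cacna1a, Cacna1b, Cacna1c, Cacna1d, Cacna1e, Cacna1g, Cacna1h and Cacna1i. The other 2 known family members, Cacna1f and Cacna1s, were not analysed here. The SCA3 mice were hemizygous MJD84.2 mice on a C57BL/6 background, in which the complete human ATXN3 gene, its CAG repeat expanded, is driven by its own human promoter in all tissues, in addition to the mouse Atxn3 gene. Controls were wild-type C57BL/6 mice. All animals were untreated males aged 74 to 77 weeks that had been tested for motor behaviour earlier in life. The 53 libraries came from 14 mice. Wild-type mice gave 8 libraries of brainstem, 7 of cerebellum, 7 of cortex and 8 of striatum, and SCA3 mice gave 6 of each region except striatum, with 5. Each library was bulk poly-A RNA of dissected tissue, in which fewer cells of a type and less RNA per cell cannot be told apart.

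Each of these genes encodes the large α1 protein that forms the pore and the voltage sensor of a calcium channel and that decides the type of current. Cacna1a, Cacna1b and Cacna1e carry the P/Q-, N- and R-type currents that trigger transmitter release and shape firing, Cacna1c and Cacna1d carry the L-type currents that link depolarisation to gene expression and pacemaking, and Cacna1g, Cacna1h and Cacna1i carry the low-voltage T-type currents that support rebound and burst firing. Purkinje cells of the cerebellum rely on P/Q-type channels, and a CAG expansion in human CACNA1A causes another ataxia, SCA6. Thalamic relay neurons are a classical site of the T-type channel of Cacna1g.

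The 8 genes lie on 8 chromosomes of the GRCm38 build. Cacna1a is at chromosome 8, 84388440 to 84640246, plus strand, and Cacna1b at chromosome 2, 24603887 to 24763152, minus strand. Cacna1e occupies chromosome 1, 154390731 to 154884501, minus strand. Cacna1c is at chromosome 6, 118587240 to 119196418, and Cacna1d at chromosome 14, 30039939 to 30491455, both on the minus strand. Of the T-type genes, Cacna1g is at chromosome 11, 94408391 to 94474198, and Cacna1h at chromosome 17, 25374285 to 25433783, both on the minus strand, and Cacna1i is at chromosome 15, 80287238 to 80398279, plus strand. RefSeq promoter windows of 300 bases (GRCm38.p6, read on the gene strand) were found for 5 of the 8 genes. A window is shown for Cacna1e, which differed between genotypes in brainstem, and for Cacna1b, which varied least among the cerebellar libraries. Capitals mark the GC box GGGCGG, searched on both strands together with its complement, of which the Cacna1b window (chr2:24763103-24763402, minus strand) held 3 and the Cacna1e window (chr1:154725871-154726170, minus strand, inside the annotated gene) held 0. The GC content was 72.3% in the window of Cacna1b and 55.3% in that of Cacna1e. A GC box was present in 35.7% of 32851 promoter windows of the same length, so its presence is common, and a match of letters is a description only.
Cacna1b: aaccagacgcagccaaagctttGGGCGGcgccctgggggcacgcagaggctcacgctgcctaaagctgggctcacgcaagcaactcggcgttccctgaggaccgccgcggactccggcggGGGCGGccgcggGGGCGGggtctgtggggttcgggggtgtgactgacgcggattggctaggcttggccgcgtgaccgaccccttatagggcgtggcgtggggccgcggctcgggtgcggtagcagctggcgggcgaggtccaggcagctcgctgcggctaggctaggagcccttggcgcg
Cacna1e: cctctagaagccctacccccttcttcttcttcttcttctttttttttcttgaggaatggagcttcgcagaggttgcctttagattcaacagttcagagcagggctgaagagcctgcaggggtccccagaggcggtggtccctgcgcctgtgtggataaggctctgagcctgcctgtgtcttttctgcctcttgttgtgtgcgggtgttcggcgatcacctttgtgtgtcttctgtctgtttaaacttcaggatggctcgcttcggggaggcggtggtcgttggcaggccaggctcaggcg

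The libraries held between 31.7 and 76.7 M counts each (M for mega), and the 8 genes were well sampled, with between 150 counts (Cacna1h in a cerebellar library) and 48487 counts (Cacna1a) per library. Of the marker lists read beside the members, 10 of 12 thalamic, 10 of 10 striatal projection neuron, 6 of 8 cortical glutamatergic neuron, 4 of 6 Purkinje cell, 6 of 8 cerebellar granule cell and 4 of 10 brainstem neuron genes were in the table. Purkinje cell markers summed to a median of 3530 CPM (counts per 1 M of the normalised library total) in wild-type cerebellum and to at most 625 in wild-type libraries of other regions, and striatal projection neuron markers summed to between 2370 and 10200 CPM in wild-type striatum. The dissections were uneven. Tcf7l2, a thalamic and midbrain transcription factor, exceeded 20 CPM in 2 of 8 wild-type and 3 of 6 SCA3 brainstem libraries and in 3 of 8 wild-type and 1 of 5 SCA3 striatal libraries. These libraries were left out in an alternative fit, and its values are given below for some of the results that depended on them. The limit was applied to these 2 regions alone, and 7 cerebellar libraries and 1 cortical library above 20 CPM were kept. The cortical libraries varied as well. Cortical glutamatergic markers summed to between 807 and 3440 CPM in wild-type and between 812 and 3630 in SCA3 cortex. Striatal projection neuron markers summed there to between 796 and 3530 CPM in wild-type and between 844 and 4390 in SCA3.

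Pore subunit mRNA per transcript length had its highest mean in cerebellum and its lowest in brainstem. Expressed as FPKM (CPM per kilobase of exon), the 8 genes summed to 147 ± 20.2 in wild-type cerebellum (SD, n = 7), 119 ± 9.27 in cortex (n = 7), 109 ± 14.5 in striatum (n = 8) and 77.9 ± 8.65 in brainstem (n = 8). Every cerebellar library (at least 121) lay above every brainstem library (at most 88.9), and the cerebellar and cortical ranges overlapped. The make-up differed as well. Cacna1a alone took 41.4 ± 2.52% of the summed FPKM in wild-type cerebellum, against 22.2 ± 2.13% in brainstem, 19.4 ± 3.13% in cortex and 15.9 ± 0.741% in striatum. Cacna1h took 15.4 ± 4.18% in striatum and 0.865 ± 0.604% in cerebellum. The 3 T-type genes together made up from 34.7 ± 1.81% in cerebellum (at most 37.9%) to 41.0 ± 2.6% in striatum (at least 38.4%), with Cacna1g high where Cacna1h was low. The 2 L-type genes were the smallest class, between 9.56 ± 0.564% in cerebellum and 13.0 ± 1.75% in striatum.

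**Figure D1:**
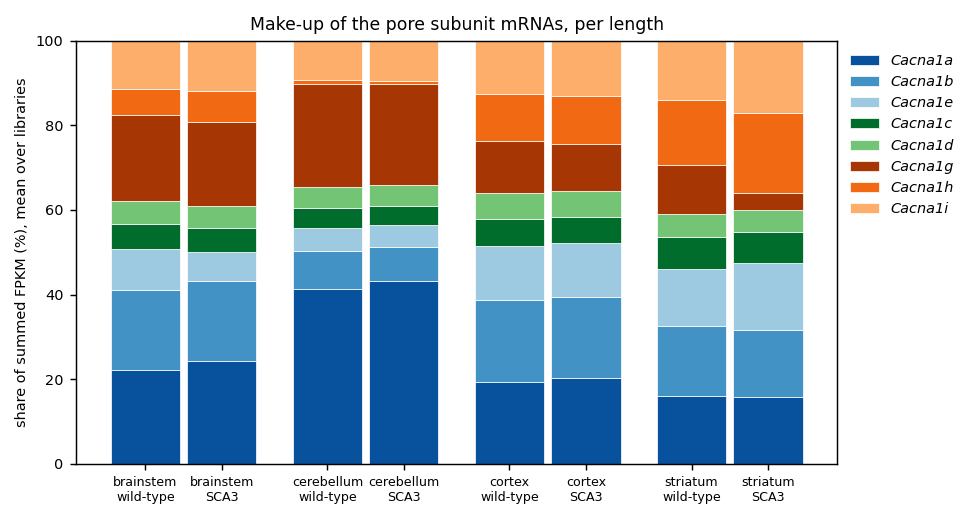
Stacked bars give the mean share (%, vertical axis) of each pore subunit in the summed FPKM of the 8 genes, for the libraries of each region and genotype. Cacna1a fills 41.4% of the wild-type cerebellar bar and 15.9% of the wild-type striatal bar, and Cacna1h fills 0.865% of the former and 15.4% of the latter.

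Levels were next compared between wild-type regions with edgeR's likelihood ratio test and Benjamini-Hochberg adjustment over all 12372 genes, and a gene was called at an adjusted p (false discovery rate, FDR) under 0.05. Of the 8 genes, 7 differed between brainstem and cerebellum, where 72.6% of all genes did, and 7 between brainstem and cortex (65.4% of all genes). Brainstem and striatum differed in 6 of 8 (64.2%), cerebellum and cortex in 5 (69.7%), cerebellum and striatum in 6 (69.5%), and cortex and striatum in 3 (34.4%). These counts are read against the shares of all genes and say nothing particular to the family. Brainstem was the lower side for each of the 7 members called against cortex and of the 6 called against striatum.

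**Figure D2:**
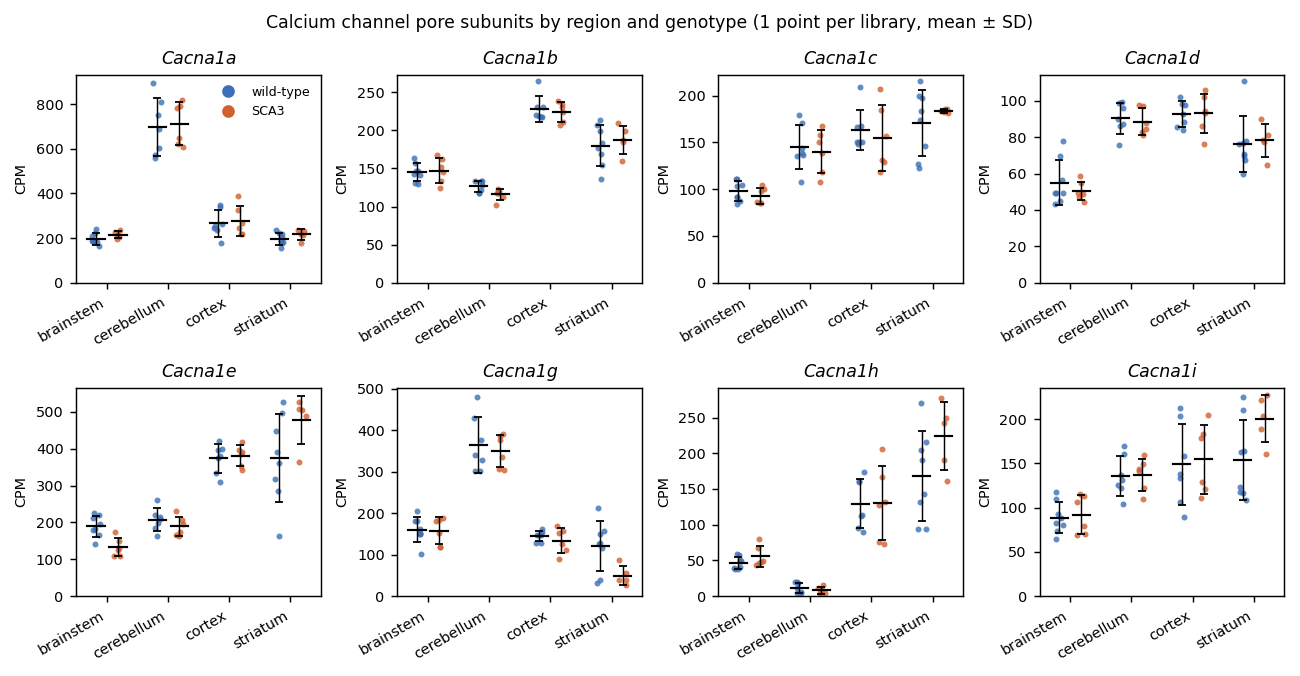
Each panel gives the CPM of a pore subunit (vertical axis, from 0) in each library by region, blue for wild-type and orange for SCA3, with the mean and SD in black. Cacna1a and Cacna1g peak in cerebellum, Cacna1h is lowest there, and the wild-type striatal points of Cacna1g run from 31.5 to 213 CPM.

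Cacna1a, the P/Q-type pore, was highest in cerebellum in every comparison. Wild-type cerebellum held 559, 689 and 895 CPM (lowest, median and highest library). Cortex followed with 178, 255 and 346 CPM, and brainstem (163, 185 and 242) and striatum (155, 195 and 236) were lowest. No cerebellar library overlapped with any library of another region. Cerebellum exceeded brainstem 3.54-fold (log2 1.82 ± 0.12 SE, FDR = 2.8e-47) and cortex 2.62-fold (FDR = 2.2e-26). Cortex exceeded brainstem 1.35-fold (FDR = 0.00079) and striatum 1.35-fold (FDR = 0.0025), with overlapping ranges, and the latter was not called without the libraries above the Tcf7l2 limit (FDR = 0.054). Brainstem and striatum did not differ beyond their spread (FDR = 0.98, 95% interval of the log2 difference -0.24 to 0.23).

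Cacna1b, the N-type pore that supports release at many terminals, had its highest level in cortex and its lowest in cerebellum. Its wild-type range was 217, 220 and 265 CPM in cortex, 136, 180 and 213 in striatum, 130, 145 and 164 in brainstem and 118, 128 and 134 in cerebellum. All neighbours in this order were called: cortex over striatum 1.27-fold (FDR = 3.3e-05), striatum over brainstem 1.24-fold (FDR = 4.4e-05) and brainstem over cerebellum 1.15-fold (FDR = 0.01). The differences were small, and the gene varied by only 5.64% (coefficient of variation) among wild-type cerebellar and by 7.52% among wild-type cortical libraries. In wild-type brainstem the 2 libraries above the Tcf7l2 limit held 157 and 164 CPM, and the other 6 held 130 to 147.

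Cacna1e, the R-type pore found in dendrites and terminals, was higher in cortex and striatum than in cerebellum and brainstem. The mean was 374 CPM in both cortex (310, 381 and 421) and striatum (163, 376 and 528), and these were not called different (FDR = 1.0, interval -0.28 to 0.28). Without the libraries above the Tcf7l2 limit the wild-type striatal mean was 445 CPM, a log2 difference of -0.25 for cortex against striatum (FDR = 0.052). Cerebellum (164, 209 and 262) and brainstem (141, 189 and 225) were lower and were not called different from each other either (FDR = 0.41). Cortex exceeded brainstem 1.97-fold (FDR = 2.9e-11) and cerebellum 1.8-fold (FDR = 2.1e-08), without overlap. Striatum exceeded them 1.97-fold (FDR = 9.6e-12) and 1.8-fold (FDR = 8.7e-09), and its range overlapped with both. The wild-type striatal libraries of this gene were the most spread, with a coefficient of variation of 32%.

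Both L-type genes were lowest in brainstem. Cacna1c, the main L-type pore of neurons and heart, held 83.8, 97.6 and 111 CPM in wild-type brainstem, 108, 139 and 179 in cerebellum, 148, 151 and 209 in cortex and 123, 179 and 216 in striatum. Brainstem was 1.48-fold lower than cerebellum, the next region (FDR = 2.7e-06), and cerebellum, cortex and striatum were not called different from each other (FDR between 0.057 and 0.69). Cacna1d, the L-type pore that opens at more negative voltages and drives pacemaking, held 43.1, 49.4 and 77.7 CPM in brainstem, 59.6, 73.3 and 111 in striatum, 75.6, 89.9 and 99.2 in cerebellum and 84.2, 92.6 and 102 in cortex. Cortex and cerebellum were not called different (FDR = 0.77), cerebellum exceeded striatum 1.19-fold (FDR = 0.025), cortex exceeded striatum 1.22-fold (FDR = 0.021) and striatum exceeded brainstem 1.38-fold (FDR = 9.4e-06). Without the libraries above the Tcf7l2 limit, striatum was called neither against cerebellum (FDR = 0.17) nor against cortex (FDR = 0.12). Exons of Cacna1d overlap by 589 bases with those of Chdh, a choline oxidation gene on the opposite strand, and the counting did not use strand. Chdh was higher in SCA3 mice in all 4 regions (log2 differences between 0.66 and 1.04, FDR at most 0.00029), while Cacna1d was not called in any.

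Of the T-type genes, Cacna1g was highest in cerebellum. It held 302, 339 and 479 CPM in wild-type cerebellum, above every library of the other regions. Brainstem (101, 157 and 205), cortex (129, 147 and 161) and striatum (31.5, 126 and 213) followed and were not called different from each other (FDR between 0.089 and 0.61). Without the libraries above the Tcf7l2 limit the wild-type striatal mean was 87.8 CPM in place of 120, and striatum was then called lower than brainstem (log2 0.79 for brainstem against striatum, FDR = 0.004) and cortex (0.73, FDR = 0.015). Cerebellum exceeded brainstem 2.28-fold (FDR = 6.5e-07) and striatum 3.05-fold (FDR = 2.1e-11).

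Cacna1h, the T-type pore known also from sensory neurons, ran the other way. It held 93.5, 167 and 271 CPM in wild-type striatum and 90.1, 114 and 174 in cortex, which were not called different (FDR = 0.35). Without the libraries above the Tcf7l2 limit the striatal mean was 205 CPM against 129 in cortex (log2 -0.66 for cortex against striatum, FDR = 0.12). Brainstem had 37.4, 44.3 and 59.2 CPM and cerebellum only 3.69, 10.7 and 19.1. Striatum exceeded cerebellum 14.6-fold (log2 3.87 ± 0.31 SE, FDR = 2.5e-27), and brainstem exceeded cerebellum 4.02-fold (FDR = 1.4e-09), with no overlap in either case. Within the cerebellar libraries the level still varied by 63.7%, the largest coefficient of variation of any member in any group. The 7 cerebellar libraries with Tcf7l2 above 20 CPM, 4 of them wild-type, held the 7 highest values of Cacna1h (8.83 to 19.1 CPM), the other 6 held 2.77 to 5.26 CPM, and the part of the dissection in this spread was not tested.

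Cacna1i, the third T-type pore, was lowest in brainstem. Wild-type striatum (108, 143 and 225 CPM), cortex (89.8, 138 and 212) and cerebellum (104, 131 and 170) were not called different (FDR between 0.35 and 0.87). Brainstem, at 64.8, 85.2 and 118, was 1.53-fold below cerebellum (FDR = 0.0005), 1.68-fold below cortex (FDR = 2.7e-05) and 1.73-fold below striatum (FDR = 5e-06), with overlapping ranges. The 2 wild-type brainstem libraries above the Tcf7l2 limit held 110 and 118 CPM, and the other 6 held 64.8 to 92.2. Per length, Cacna1a was far ahead of the other members in wild-type cerebellum (61.0 FPKM, against 36.0 for Cacna1g). Elsewhere the first members were closer than their spread, with Cacna1a at 23.3 ± 5.17 and Cacna1b at 23.0 ± 1.73 FPKM in cortex, Cacna1a at 17.2 ± 2.27 and Cacna1g at 15.8 ± 3.0 in brainstem, and Cacna1b at 18.1 ± 2.69, Cacna1a at 17.3 ± 2.39 and Cacna1h at 17.2 ± 6.45 in striatum. The striatal order takes in the libraries above the Tcf7l2 limit. Without them the wild-type striatal mean was 205 CPM for Cacna1h (168 with them), 211 for Cacna1a (197) and 188 for Cacna1b (180), which puts Cacna1h first per kilobase of exon. The order also depends on the length used. With the longest transcript in place of the exon union, Cacna1a led with 33.5 ± 7.45 FPKM in cortex (Cacna1e 25.0 ± 2.64) and 24.8 ± 3.27 in brainstem (Cacna1g 19.1 ± 3.63), and Cacna1e (25.0 ± 8.0) and Cacna1a (24.9 ± 3.44) were first in striatum.

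Whether the SCA3 genotype altered the pore subunits was then tested in each region. In brainstem 1 of 8 was called, Cacna1e, which was lower. Of all genes 1.92% were called there, 0.776% higher and 1.15% lower. In striatum 1 of 8 was called, Cacna1g, also lower, against 7.54% of all genes (2.07% higher and 5.47% lower). None was called in cerebellum (0.0647% of all genes) or cortex (0.154%), where no member passed an unadjusted p of 0.05 either, and DESeq2 and edgeR's quasi-likelihood test also called 0 in both regions. The median log2 difference over the 8 genes was -0.00 in brainstem, -0.06 in cerebellum, 0.00 in cortex and 0.12 in striatum, and 0.00 over all genes in each. A single call of 8 in a region is no result about the family as a whole. In each region the ranges of the genotypes overlapped for all 8 members.

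**Figure D3:**
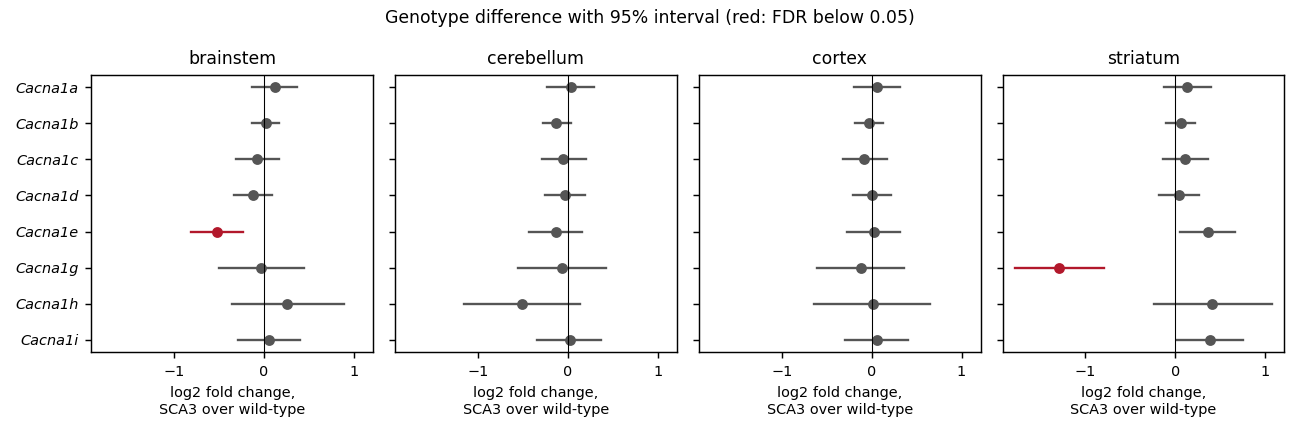
Points give the log2 difference between SCA3 and wild-type (horizontal axis) for each pore subunit in each region, and lines the 95% interval. The red points are Cacna1e in brainstem (-0.52) and Cacna1g in striatum (-1.29), and of the other intervals only those of Cacna1e and Cacna1i in striatum leave out 0.

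Cacna1g was lower in SCA3 striatum. The 5 SCA3 libraries held 27.2, 37.7, 38.0, 56.5 and 86.3 CPM, and the 8 wild-type libraries 31.5, 39.2, 116, 125, 127, 149, 157 and 213. Of the wild-type libraries, 6 therefore lay above every SCA3 library, and the other 2 (mice 9082857 and 9083371) lay among the SCA3 libraries. The difference was 2.44-fold (log2 -1.29 ± 0.25 SE, FDR = 0.00033).

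In wild-type striatum this gene was high where thalamic markers were high. The 10 thalamic markers in the table summed to between 173 and 2640 CPM in wild-type and between 176 and 433 in SCA3 striatum (medians 369 and 182), with none of the 10 at 0 in all libraries of a group, and 6 of the 10 were called lower in SCA3, where 5.47% of all genes were. The 2 wild-type libraries low in Cacna1g were those with the lowest sums, 173 and 182 CPM, and the wild-type library with the highest sum (mouse 7267059, 2640 CPM) was the highest in Cacna1g. Slc17a6, the vesicular glutamate transporter of thalamic neurons, was at 2.89 and 3.47 CPM in the first 2 and at 291 CPM in the last. Among the SCA3 libraries, those with sums of 178, 182, 215 and 433 CPM held 27.2, 38.0, 37.7 and 56.5 CPM of Cacna1g, and mouse 9083514, with the lowest sum (176), held the most (86.3). The sum of the 10 striatal projection neuron markers ran from 2370 to 10200 CPM in wild-type and from 6440 to 9470 in SCA3 striatum, with medians of 5110 and 8960, and all 10 were above 0 in log2 difference (median 0.51), with 0 called. Without the 4 striatal libraries above the Tcf7l2 limit, SCA3 held 27.2 to 86.3 CPM (n = 4) and wild-type 31.5 to 127 (n = 5), and the difference was log2 -0.90 with the striatal libraries alone (FDR = 0.71). In the fit over all regions, which also left out the 5 brainstem libraries above the limit, it was -0.89 (FDR = 0.099). In striatum alone, adjusting for a score of thalamic markers, it was -0.80 (FDR = 0.41). With the striatal libraries alone and no covariate it was -1.28 (FDR = 0.14). That fit took its dispersion from striatum, whereas the main fit shared 1 dispersion per gene over 53 libraries. The coefficient of variation of Cacna1g was 50.2% in wild-type striatum and 8.55% in wild-type cortex, so the SE and FDR of the main fit may understate the striatal spread. Whether dissection contributed to the genotype difference was not tested beyond these fits.

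**Figure D4:**
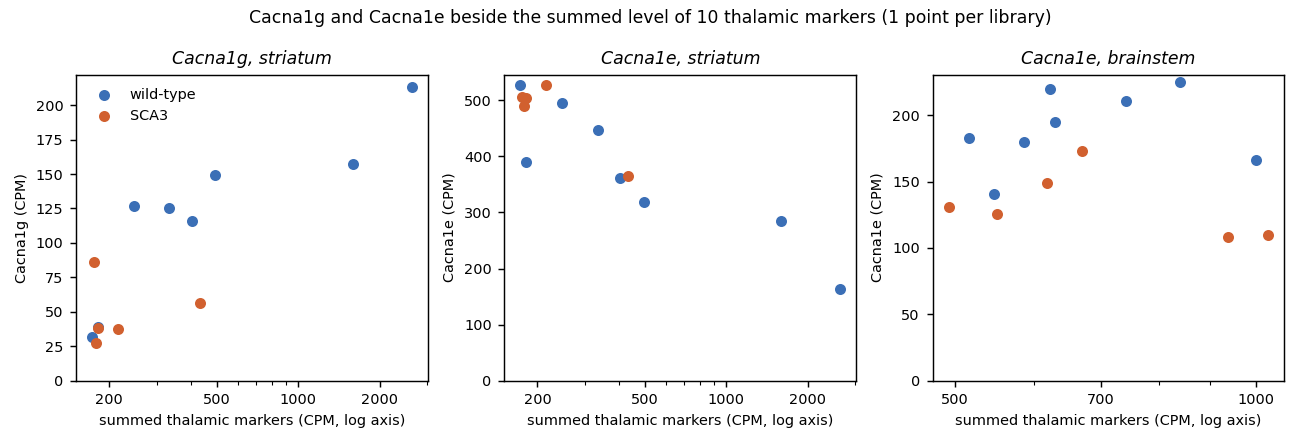
Each point is a library, with the summed CPM of 10 thalamic markers on a log horizontal axis and the CPM of Cacna1g or Cacna1e on the vertical axis, blue for wild-type and orange for SCA3. In striatum Cacna1g is high and Cacna1e low in the wild-type libraries richest in thalamic markers, and the SCA3 library with the highest sum (433) holds 56.5 CPM of Cacna1g. In brainstem the SCA3 points of Cacna1e lie low at both ends of the axis. Slc17a6 alone gave 252 to 427 CPM of the brainstem sums. Mouse 7267059 (sum 742) held 6.6 CPM of Tcf7l2 and mouse 7267056 (sum 671) held 92.3, so the axis does not order the brainstem libraries as Tcf7l2 does.

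Cacna1e was lower in SCA3 brainstem, with 108, 128 and 173 CPM (lowest, median and highest of 6) against 141, 189 and 225 in 8 wild-type libraries. Of the SCA3 libraries, 4 lay below every wild-type library, and the other 2 (mice 7267056 and 9083513, at 173 and 149 CPM) lay within the wild-type range. The difference was 1.43-fold (log2 -0.52 ± 0.15 SE, FDR = 0.031). It was similar without the libraries above the Tcf7l2 limit (-0.48, FDR = 0.031) and with the brainstem libraries alone (-0.52, FDR = 0.0035). RNA integrity (RIN) was higher in the SCA3 brainstem libraries, with a mean of 7.78 against 7.24, and with RIN as a covariate the difference was -0.55 (FDR = 0.033). Without libraries of a RIN under 7 it was -0.50 and no longer called (FDR = 0.069). Nor was it called by edgeR's quasi-likelihood test (FDR = 0.053) or by limma-voom with the mouse as a block (FDR = 0.052). The call was also lost when mouse 7267054, 9082853, 9083371, 9083373, 9083514 or 9083515 was left out (log2 -0.52 to -0.47, FDR 0.063 to 0.18). Oligodendrocyte markers summed to a median of 11900 CPM in SCA3 and 18600 in wild-type brainstem, astrocyte markers to 4080 and 6490, and general neuronal markers to 6350 and 7090, and their part in the result was not tested.

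In striatum the mean of the same gene was higher in SCA3 mice, without a call. SCA3 striatum held 365, 490, 505, 507 and 527 CPM against 163, 376 and 528 in wild-type, a log2 difference of 0.36 ± 0.15 that was not called (FDR = 0.13). The lowest wild-type library, mouse 7267059, was the library richest in thalamic markers. Without the libraries above the Tcf7l2 limit the difference was 0.19 (FDR = 0.68), without mouse 7267059 alone it was 0.25 (FDR = 0.29), and in striatum alone, adjusting for the thalamic score, it was 0.11 (FDR = 0.82). When wild-type mouse 9082857, the highest library at 528 CPM, was left out, it was 0.45 and called (FDR = 0.031).

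The other members gave small differences with intervals around 0. Cacna1a differed by log2 0.03 to 0.13 over the 4 regions (FDR at least 0.57), and in cerebellum, where it is most abundant, SCA3 libraries held 606, 715 and 819 CPM against 559, 689 and 895. The 95% interval there was -0.23 to 0.29. Cacna1b differed by -0.13 to 0.06, Cacna1c by -0.08 to 0.11 and Cacna1d by -0.12 to 0.04. The intervals of these 4 genes stayed within -0.34 and 0.40 in each region. Cacna1c had a coefficient of variation of 1.24% in SCA3 striatum, with 181 to 186 CPM in 5 libraries against 123 to 216 in wild-type.

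The remaining T-type genes were less precisely measured. Cacna1h gave 0.26 in brainstem, -0.51 in cerebellum, 0.01 in cortex and 0.41 in striatum, each with an SE of 0.32 to 0.34 (FDR at least 0.46). Its striatal level was 161, 190, 242, 249 and 278 CPM in SCA3 mice and 93.5, 167 and 271 in wild-type mice. Cacna1i reached 0.39 ± 0.19 in striatum (161, 189, 203, 222 and 227 CPM against 108, 143 and 225, FDR = 0.18) and at most 0.06 elsewhere. The 4 wild-type striatal libraries with the highest sums of thalamic markers held the 4 lowest values of both Cacna1h (93.5 to 143 CPM) and Cacna1i (108 to 123). In striatum alone, adjusting for the thalamic score, the difference was 0.14 for Cacna1h (FDR = 0.78) and 0.22 for Cacna1i (FDR = 0.65), and without libraries above the Tcf7l2 limit it was 0.23 (FDR = 0.93) and 0.27 (FDR = 0.75). Cacna1g in the other regions differed by -0.03 to -0.12, with an interval of -0.61 to 0.36 in cortex.

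A combined test of a genotype difference in any region called 2 of the 8, Cacna1g (FDR = 0.0049) and Cacna1e (FDR = 0.028), against 4.73% of all genes. Neither was called without libraries of a RIN under 7 (FDR = 0.19 and 0.17) or without those above the Tcf7l2 limit (0.49 and 0.06), and limma-voom with the mouse as a block called Cacna1e (0.049) and not Cacna1g (0.084). The test of whether the genotype difference depended on region called none of the 8 (0.218% of all genes). Its FDR was 0.11 for Cacna1e and 0.12 for Cacna1g at unadjusted p-values of 0.00053 and 0.00077, and DESeq2 and the quasi-likelihood test also called none. A difference between regions was therefore not shown for either gene, although each was called in 1 region. It was called for both when mouse 9082857 was left out (FDR = 0.011 and 0.0047), for Cacna1e without mouse 9083375 (0.041), and for Cacna1g without mouse 9083371 (0.0082) or 9083514 (0.031).

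The auxiliary subunits traffic and tune the pore. Of the 16 listed, 13 were in the table: 3 α2δ genes, 4 β genes and 6 γ genes. Among the α2δ genes, which bring channels to the membrane, Cacna2d1 was highest in cortex (20.7 ± 5.43 FPKM in wild-type), Cacna2d2 in cerebellum (31.1 ± 4.45) and striatum (28.3 ± 9.98) and Cacna2d3 in striatum (20.5 ± 7.51) and lowest in cerebellum (4.94 ± 0.435). Among the β genes, which bind the pore from inside, Cacnb4 was highest in cerebellum (53.2 ± 5.86) and Cacnb3 in cortex (60.0 ± 15.0). Cacnb1 was at 36.2 ± 5.97 in cortex and 34.3 ± 12.2 in striatum, which were not called different (FDR = 0.71), and at 7.54 ± 1.0 in cerebellum. Cacnb2 ran from 4.06 ± 0.293 in cerebellum to 6.62 ± 0.858 in striatum. Its exon union (13228 bases) is much longer than its longest transcript (5030 bases), so its place among the β genes depends on the length used.

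Most γ genes are better known as partners of AMPA receptors. Cacng2 (15.1 ± 1.84), Cacng7 (53.3 ± 9.17) and Cacng5 (13.7 ± 2.83) had their highest mean in wild-type cerebellum. Cacng5 was not called between cerebellum and striatum (log2 0.35, 95% interval -0.21 to 0.91, FDR = 0.26), and its wild-type striatal libraries ran from 14.9 to 68.2 CPM. The auxiliary levels and region comparisons include the libraries above the Tcf7l2 limit. Cacng3 (33.3 ± 8.39) and Cacng8 (19.0 ± 4.06) had it in cortex, where neither was called against striatum (FDR = 0.067 and 0.21), and Cacng4 in striatum (9.65 ± 2.94). Cacng3 was 10.4-fold higher in cortex than in cerebellum (FDR = 1.3e-62).

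**Figure D5:**
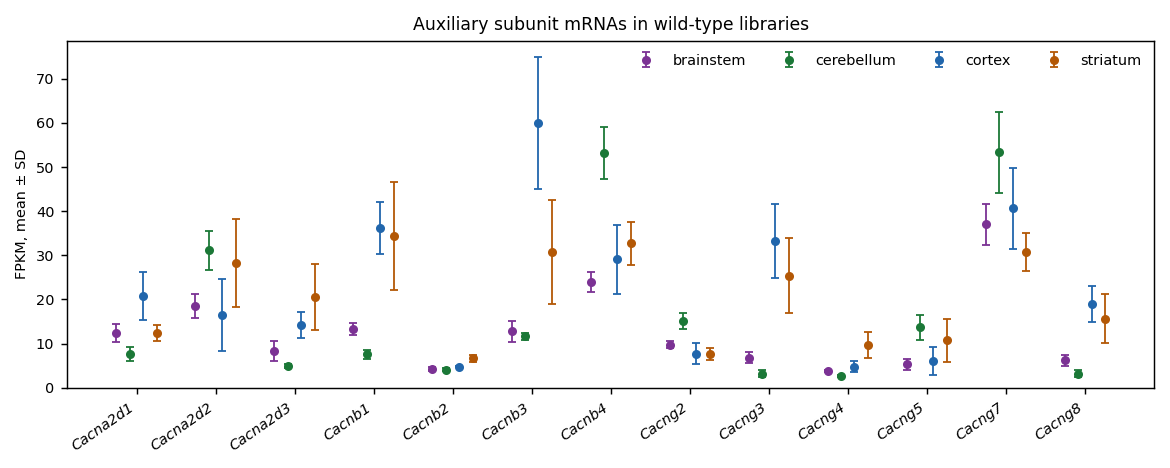
Points give the mean FPKM (vertical axis, from 0) of each auxiliary subunit in wild-type libraries of the 4 regions, and bars the SD over 7 or 8 libraries. Cacnb4 peaks in cerebellum at 53.2 and Cacnb3 in cortex at 60.0.

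In SCA3 mice 1 of the 13 auxiliary genes was called in striatum, where 7.54% of all genes were, and none in brainstem (1.92%), cerebellum (0.0647%) or cortex (0.154%). A single call of 13 is near the striatal share and is no result about the list. Cacng5 held 12.4, 12.5, 14.8, 15.0 and 15.9 CPM in SCA3 striatum and 14.9, 45.0 and 68.2 in wild-type (log2 -1.54 ± 0.31, FDR = 0.00067). The lowest wild-type values, 14.9 and 15.4 CPM, came from the same 2 mice that were low in Cacna1g (9082857 and 9083371). In striatum alone, adjusting for the same score, it was -1.29 (FDR = 0.019), and without the libraries above the Tcf7l2 limit it was -1.32 (FDR = 0.057). The median log2 difference over the 13 genes was 0.02 in brainstem, -0.07 in cerebellum, 0.01 in cortex and 0.12 in striatum.

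Beyond the channel, 15 of 18 listed partners and regulators (release site proteins, calmodulins, RGK proteins and the like) and 23 of 24 genes of calcium stores and clearance were in the table. None of the 15 partners was called in any region, beside the same shares of all genes (7.54% in striatum and 1.92% or less elsewhere), and the counts say nothing particular to either list. Of the 23, Slc8a1, a sodium-calcium exchanger, was called lower in striatum, and no other in any region. SCA3 striatum held 69.5, 86.7, 87.3, 153 and 197 CPM of Slc8a1 against 69.3, 272 and 395 in wild-type (log2 -1.05 ± 0.25, FDR = 0.0041). The same wild-type mice as for Cacna1g were low, at 74.1 and 69.3 CPM. With the striatal libraries alone it was -1.05 and not called (FDR = 0.24), without libraries of a RIN under 7 it was -0.66 (FDR = 0.21), and without those above the Tcf7l2 limit it was -1.04 (FDR = 0.064).

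The members followed distinct genes. Across all 53 libraries, which share region and dissection, so that r describes and does not test, Cacna1a ran closest to Rnf19b (Pearson r of log2 CPM 0.984), Brpf1 (0.98) and Ncapd2 (0.979), and Cacna1b to Pacs1 (0.958), Rasal1 (0.956) and Rnf165 (0.953). Cacna1e ran closest to Trank1 (0.937), Cdk17 (0.929) and Lppr4 (0.928). The genes nearest to Cacna1c were Nhsl2 (0.898), Auts2 (0.89) and Shank3 (0.874), and those nearest to Cacna1d were Zdhhc16 (0.926), Gpm6a (0.926) and Gal3st3 (0.924). Cacna1g was nearest to Tmem108 (0.935), Pip5k1b (0.924) and Pias3 (0.923), Cacna1h to Gpr83 (0.991), Trerf1 (0.987) and D430019H16Rik (0.985), and Cacna1i to 6030419C18Rik (0.899), Igsf9b (0.894) and Mllt6 (0.889). Within the family, Cacna1h ran against Cacna1g (-0.832) and Cacna1a (-0.811).

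The same measure over deviations from the group means leaves out region and genotype, while differences in dissection within a group remain. It kept at least 1 of the 3 nearest genes for Cacna1a, Cacna1c, Cacna1h and Cacna1i and none for the other members. Cacna1a was then closest to Foxo3 (0.887), Pip5k1c (0.868) and Brpf1 (0.864), Cacna1b to Prr36 (0.863), Rtn1 (0.851) and Bcl9 (0.821), and Cacna1e to Reln (0.742), D930015E06Rik (0.733) and Abl2 (0.733). For the L-type genes the nearest were Auts2 (0.706), Peak1 (0.643) and Tnc (0.643) for Cacna1c and Cbfa2t3 (0.757), Fam160a2 (0.737) and Pcnx (0.735) for Cacna1d. Cacna1g was closest to Mast1 (0.895), Asic2 (0.872) and Slc24a3 (0.851). Cacna1h stayed with Gpr83 (0.944) and Trerf1 (0.912), followed by Tac1 (0.902), which is among the striatal projection neuron markers. Cacna1i was closest to Mtcl1 (0.843), Shank3 (0.842) and Igsf9b (0.84), and within the family Cacna1a and Cacna1i deviated together (0.752).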

How the data were processed

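RNA sequencing had been performed on brainstem, cerebellum, cortex and striatum. The table deposited by the authors held raw counts, 1 gene per line and 1 library per column, and 0 columns were left unmapped. Per the authors' methods and processing notes, reads from unstranded poly-A libraries were trimmed with cutadapt 1.10, aligned uniquely to GRCm38 with STAR 2.3.0e and counted per RefSeq gene with HTSeq 0.6.1 without strand, and genes averaging above 4 CPM were kept (the lowest mean was 4.07).

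Here, edgeR 4.0.16 in R 4.3.3 was run on those counts with TMM normalisation and 1 negative binomial fit over 53 libraries and 8 groups of region and genotype, with likelihood ratio tests, as in the study. Benjamini-Hochberg adjustment ran over 12372 genes, and genes under an FDR of 0.05 were called. CPM used TMM-adjusted totals (prior count 2 for logs), and FPKM used exon lengths from GENCODE (12324 genes with a length). Alternatives included DESeq2 1.42.0 and limma 3.58.1, and removal of the brainstem and striatal libraries above 20 CPM of Tcf7l2 was chosen after seeing the data.

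The members, lists and naming rule (each pore and auxiliary subunit, called genes of 2 calcium lists, the 3 nearest genes by r under each of 2 measures, and genes overlapping a member) were chosen with earlier results of these data known. Each mouse gave up to 4 libraries, so mice pair the regions: the mean correlation of same-mouse deviations from the group means was 0.0904 to 0.186 over 6 region pairs. Each regional genotype comparison is unpaired. Chdh, chosen by its overlap with Cacna1d, is the only such gene in the table.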

Additional observations from a re-analysis of the deposited data

Results flagged for a closer look

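Within 64 groups of libraries (8 genes in 8 groups), 4 held a library far from the others by Dixon's test, and chance alone marks about 5% of groups. In wild-type cortex, mouse 7267058 was highest for both Cacna1b (265 CPM, the next library at 230) and Cacna1c (209 CPM, the next at 168). In wild-type striatum, mouse 9083375 was highest for Cacna1d (111 CPM, the next at 78.0). In SCA3 striatum, mouse 9082853 was lowest for Cacna1e (365 CPM, the next at 490), and it was the only SCA3 striatal library above the Tcf7l2 limit.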

How the results depend on the processing

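The counts of pore subunits called in SCA3 cerebellum and cortex (0 each) were the same under every alternative run, and no result reversed its direction. The wild-type region counts stayed within 1.5 times of those given (between 2 and 7 genes over all alternatives). In brainstem the count of 1 went to 0 with edgeR's quasi-likelihood test, without libraries of a RIN under 7 and with limma-voom and the mouse as a random replicate block, and was 0 to 1 when a mouse was left out. In striatum the count of 1 went to 0 with the striatal libraries alone, with adjustment for the thalamic score and in both fits without libraries above the Tcf7l2 limit, and was 1 to 2 when a mouse was left out. The combined count of 2 was 1 with the quasi-likelihood test, 1 with the replicate block, 0 with limma-voom without the mouse, 0 without libraries of a RIN under 7, 0 without libraries above the Tcf7l2 limit, and 0 to 2 when a mouse was left out. The region dependence count of 0 was 0 to 2 when a mouse was left out. With the mouse as a fixed replicate block it remained 0 (FDR = 0.094 for Cacna1e and 0.16 for Cacna1g). The auxiliary count of 1 was 0 without libraries above the Tcf7l2 limit. The count of 1 for calcium stores and clearance was 0 without those libraries, without libraries of a RIN under 7 and in single regions, 2 with DESeq2, with adjustment for the thalamic score (where Slc8a1 itself was not called, log2 -0.85, FDR = 0.47) and with the series of the mouse number as a covariate, 6 without mouse 9082857, 3 without mouse 9083371, and 2 without mouse 7267055, 7267058, 7267059, 9082853 or 9083514. Where a call was lost the cause was not tested. Fits of a single region or without libraries had fewer samples, and a fit of a single region took its dispersions from that region alone. Library totals without TMM left 63 of 64 mean levels within 1 SD, whereas the length of the longest transcript in place of the exon union moved 37 of 64 FPKM means by more, so the order of members by FPKM depends on the length used. The fewest counts of any member in a library were 150 (Cacna1h in cerebellum).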
